A study of Mus musculus with 48 samples.

Results

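Microglia, the resident macrophages of the brain, can be recognised in bulk tissue RNA by a small set of transcripts. The microglia identity genes studied here are 9 genes taken by symbol, namely P2ry12, Tmem119, Cx3cr1, Csf1r, C1qa, C1qb, C1qc, Trem2 and Lyz2. Each symbol matched 1 Ensembl identifier among the 48526 genes of the count table, and all 9 passed the filter on low counts in each of the 24 comparisons made. The table holds reads per gene in 48 libraries from the cortex of 12 male C57BL/6JRj mice, 4 mice at each age, for which the labels give no genetic change or treatment. The ages were 3 weeks (3w), 5 months (5m, which the sample titles give as 6 months) and 18 months (18m). The cortex of a mouse was split into total homogenate (TH) and synaptosomes (SYN), a preparation of pinched-off nerve endings. Both were sequenced before a sucrose cushion (input) and as the ribosome pellet beneath it (SC), which makes 4 fractions per mouse. Library totals ranged from 1780267 to 18590040 counts and were lowest in input_SYN, where Lyz2 and Trem2 had as few as 3 and 7 counts. Libraries of the same group differed from each other by more than sampling noise. In a tissue homogenate, fewer microglia and less of a transcript per microglial cell cannot be told apart, and the same holds for the amount of microglial material in a synaptosome preparation.

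The 9 genes have different tasks. C1qa, C1qb and C1qc encode the chains of C1q, the secreted protein that starts the classical complement cascade and is known for tagging synapses that microglia then remove. Csf1r is the receptor for CSF1 and IL-34, on which microglial survival depends, Cx3cr1 is the receptor for the neuronal chemokine fractalkine, and P2ry12 is the ADP receptor that steers microglial processes. Trem2 is a lipid-sensing receptor that signals through the adaptor encoded by Tyrobp. Tmem119 is a membrane protein used as a marker of microglia within the brain, and Lyz2 encodes lysozyme, which monocytes, neutrophils and other macrophages also make.

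On the GRCm38 assembly, C1qb (chr4:136880129-136886187), C1qc (chr4:136889804-136893065) and C1qa (chr4:136895917-136898803) lie side by side on the minus strand of chromosome 4. The other members lie on chromosomes 3 (P2ry12), 5 (Tmem119), 9 (Cx3cr1), 10 (Lyz2), 17 (Trem2) and 18 (Csf1r). The counting ignored the strand of a read, so where a member overlaps a gene of the opposite strand their reads cannot be told apart. This touches 873 of the 5774 exonic bases of Csf1r, shared with Hmgxb3, and 9 of the 2546 exonic bases of P2ry12, which lies within Med12l. It also touches 78 of the 4505 exonic bases of Cx3cr1, shared with the antisense gene Gm33858, which is not among the genes counted. Lyz1, the close copy of Lyz2, had at most 3 counts in any library.

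RefSeq promoters on GRCm38.p6, each from 250 bases before to 50 bases after a transcription start, were at hand for 6 of the 9 members. Both strands were searched for GAGGAA, a sequence bound by PU.1, the transcription factor of the ETS family on which macrophages depend. It was found in 3 of the 6 promoters, C1qb, C1qc and Trem2, and not in those of P2ry12, Cx3cr1 and Lyz2, against 28.3% of all 32851 promoters. The AP-1 site TGACTCA, the CREB core TGACGT and the letters TATAAA of the TATA box were in none of the 6, against 5.2%, 7.51% and 13.6% of all promoters. The letters of these motifs do not overlap one another in the matches found. The 250 bases before the start are shown for C1qb (chr4:136886201-136886450, minus strand) and Trem2 (chr17:48346151-48346400, plus strand), members whose level rose between 3w and 5m in SC_SYN, and for P2ry12 (chr3:59262986-59263235, minus strand), which did not pass that test. Lyz2 rose in SC_SYN as well, and its promoter lacks GAGGAA. Capitals mark GAGGAA or its reverse complement, 30 bases before the start in C1qb and 40 in Trem2, and P2ry12 has neither. Other sequences bound by factors of the ETS family were not searched for in any promoter.
C1qb: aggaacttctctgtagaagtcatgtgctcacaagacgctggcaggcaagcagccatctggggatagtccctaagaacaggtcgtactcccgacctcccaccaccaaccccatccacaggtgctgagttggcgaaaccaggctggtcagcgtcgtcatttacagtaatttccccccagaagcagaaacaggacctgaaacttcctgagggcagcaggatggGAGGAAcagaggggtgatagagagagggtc
Trem2: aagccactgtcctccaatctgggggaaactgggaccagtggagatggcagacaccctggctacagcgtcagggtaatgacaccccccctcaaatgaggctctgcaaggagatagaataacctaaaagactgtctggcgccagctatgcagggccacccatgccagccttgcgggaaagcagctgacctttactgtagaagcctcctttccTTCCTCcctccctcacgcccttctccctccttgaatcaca
P2ry12: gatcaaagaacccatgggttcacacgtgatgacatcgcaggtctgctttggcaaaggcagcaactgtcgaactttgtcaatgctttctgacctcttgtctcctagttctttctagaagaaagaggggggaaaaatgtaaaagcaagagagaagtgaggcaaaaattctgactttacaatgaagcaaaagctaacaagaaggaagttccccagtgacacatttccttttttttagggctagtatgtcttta

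Levels are given as normalised CPM, which are counts scaled to a common library total with TMM, a factor that balances the compositions of the 48 libraries. Fold changes are log2 values with their standard errors from edgeR's quasi-likelihood test, with p-values adjusted over all genes tested by the Benjamini-Hochberg method and a threshold of 0.05. The summed level of the 9 members lay between 162 and 206 CPM in the input_TH libraries and between 217 and 344 CPM in SC_TH. It was higher in synaptosomes, with 276 to 667 CPM in input_SYN and 493 to 1207 CPM in SC_SYN.

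Genes can be compared with each other only per length. In RPKM (CPM divided by the exonic length in kilobases), C1qb was the highest member in SC_SYN at 5m, at 195 ± 40.3 (SD, n = 4), followed by C1qa at 142 ± 26.5 and C1qc at 71.1 ± 12.1. Csf1r followed at 56.3 ± 5.70 RPKM, Tmem119 at 28.7 ± 6.05, Cx3cr1 at 13.7 ± 2.62, Lyz2 at 11.7 ± 2.31, P2ry12 at 7.12 ± 2.31 and Trem2 at 6.09 ± 1.41. In this order the libraries of C1qb and C1qa overlapped, as did those of C1qc and Csf1r, Cx3cr1 and Lyz2, and P2ry12 and Trem2. In input_TH at the same age C1qb and C1qa again led, at 18.4 ± 3.46 and 14.2 ± 1.71 RPKM, and Trem2 was again last, at 1.30 ± 0.0744. The exonic length joins all annotated exons of a gene, 4946 bases for Trem2, whether or not they were expressed. The place of Trem2 depends on it, since in CPM Trem2 was at 30.1 in SC_SYN at 5m, P2ry12 at 18.1 and Lyz2 at 15.4.

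**Figure D1:**
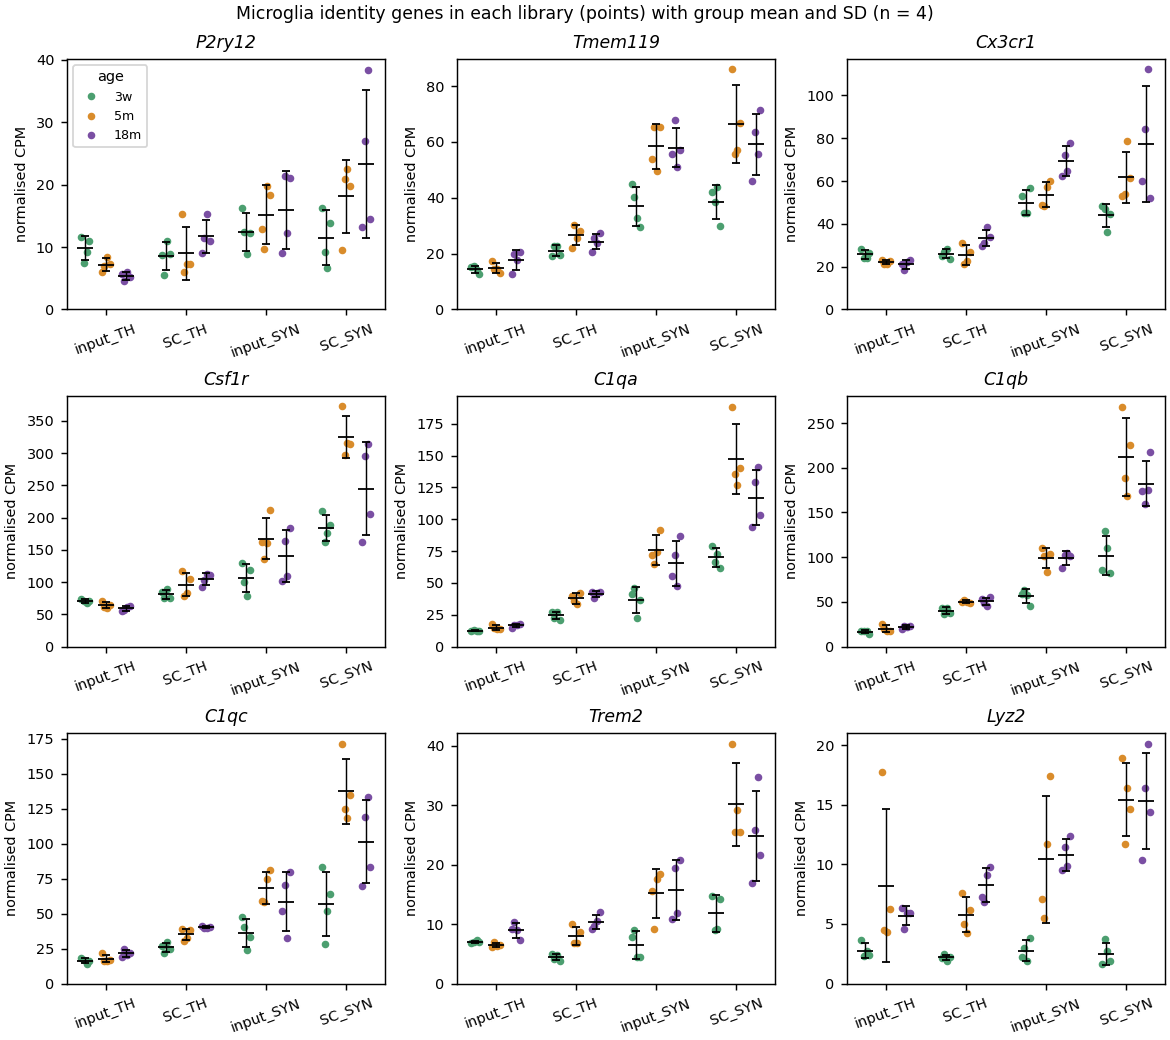
Normalised CPM of the 9 microglia identity genes in each of the 48 libraries (points, coloured by age), by fraction, with group means and SDs (black, n = 4) on linear axes that start at 0. The C1q genes climb from input_TH through SC_TH and input_SYN to SC_SYN at each age, Csf1r in SC_SYN rises from 162 to 210 CPM at 3w to 297 to 373 CPM at 5m, and 1 input_TH library at 5m stands apart for Lyz2 at 17.8 CPM.

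The first question was whether these transcripts were carried into the synaptosome preparation. At 5m, 8 of the 9 members had a higher level in input_SYN than in input_TH, where 72.7% of all genes tested differed, and all 9 were higher in SC_SYN than in SC_TH, where 67.8% differed. At 3w the counts were 6 of 9 in input (71% of all genes) and 7 of 9 in SC (63.5%), and at 18m they were 9 of 9 in both (72.3% and 62.1%). No member was lower in SYN in any of the 6 comparisons. Since most genes differed between the compartments, direction says more than the number of calls. Genes higher in SYN made up 31.7%, 32.6% and 32.9% of those tested in input at 3w, 5m and 18m, and 31.1%, 32.1% and 29.9% in SC. The median fold change of the members was 0.95, 1.39 and 1.63 in input and 1.19, 1.78 and 1.30 in SC at the 3 ages, against -0.18, -0.18 and -0.12, and -0.042, -0.091 and -0.070, for all genes.

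The C1q genes were among the members that differed most between the compartments. C1qb measured 25.4, 19.8, 17.2 and 17.7 CPM in the 4 input_TH libraries at 5m and 110, 101, 83.1 and 103 CPM in input_SYN of the same mice. The groups did not overlap, and the difference was 2.32 ± 0.12 on the log2 scale (adjusted p = 4.8e-16, edgeR). C1qa differed by 2.37 ± 0.16 and C1qc by 1.94 ± 0.19. In the ribosome pellets at 5m, C1qb measured 50.0, 52.6, 49.5 and 48.9 CPM in SC_TH and 267, 188, 168 and 226 CPM in SC_SYN. All SYN libraries were again above all TH libraries (log2 fold change 2.11 ± 0.14, adjusted p = 3.1e-12, edgeR). Within single mice, SC_SYN over SC_TH was above 1 in all 12 mice for C1qa, with a ratio of 2.2 to 4.7, for C1qb with 1.97 to 5.34 and for C1qc with 1.29 to 4.36.

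Among the receptors, Csf1r measured 117, 78.6, 83.7 and 105 CPM in SC_TH at 5m and 373, 297, 316 and 314 CPM in SC_SYN. The lowest SYN library was far above the highest TH library, with a log2 fold change of 1.78 ± 0.16 (adjusted p = 5.3e-10, edgeR). Trem2 was at 9.96, 6.76, 6.78 and 8.61 CPM in SC_TH and at 40.3, 25.5, 29.2 and 25.5 CPM in SC_SYN, again without overlap (1.90 ± 0.20). In input, however, Trem2 did not pass the test at 3w (0.02 ± 0.24, adjusted p = 0.94, edgeR), whereas at 5m it was higher in SYN by 1.26 ± 0.21 and at 18m by 0.87 ± 0.18. Cx3cr1 was higher in SYN at every age, by 0.95, 1.29 and 1.72 in input and by 0.80, 1.28 and 1.25 in SC. Tmem119 was higher by 1.40, 1.99 and 1.72 in input and by 0.92, 1.35 and 1.31 in SC, and its SYN and TH libraries did not overlap in any of the 6 comparisons.

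P2ry12 and Lyz2 did not pass in every comparison either. P2ry12 did not pass the test at 3w (0.39 ± 0.24 in input and 0.47 ± 0.38 in SC) and was higher in SYN at 5m and 18m in both kinds of library. Its SC libraries overlapped at 5m, with 15.3, 6.04, 7.27 and 7.34 CPM in SC_TH and 9.47, 20.8, 22.4 and 19.8 CPM in SC_SYN. That call was lost when mouse 192, 193 or 194 was left out (adjusted p between 0.0562 and 0.0786, edgeR), whereas without mouse 191 the fold change went from 0.99 to 1.62 (adjusted p = 0.000174, edgeR). Lyz2 was higher in SC_SYN at 5m (1.41 ± 0.20) and 18m (0.93 ± 0.19), but not at 3w (0.26 ± 0.34). In input it passed at 18m alone (0.95 ± 0.34), a call that was lost without mouse 196 or 198 (adjusted p = 0.0655 and 0.062, edgeR).

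How the libraries are scaled matters here, since TMM factors were 1.16 to 1.28 in TH and 0.779 to 0.886 in SYN. With library size alone, the median of all genes moved by -0.53 to -0.65 in the 6 comparisons, and the share of calls that were higher in SYN went from 44.6%, 44.8% and 45.5% to 24.6%, 23.8% and 23.8% in input. In SC it went from 49%, 47.3% and 48.2% to 25.4%, 23.4% and 20.5%. Under that scaling 5, 7 and 7 members were still higher in input_SYN at 3w, 5m and 18m, and 6, 8 and 7 in SC_SYN. Trem2 then turned in input at 3w, to a log2 fold change of -0.56 (adjusted p = 0.0234, edgeR), and Csf1r no longer passed there (0.036). The other calls that ended were those of P2ry12 in input at 5m (0.43) and in SC at 5m and 18m (0.40 and 0.52), of Trem2 in input at 18m (0.29), of Lyz2 at 18m in input (0.37) and SC (0.40), and of Cx3cr1 in SC at 3w, which went from 0.80 to 0.26.

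**Figure D2:**
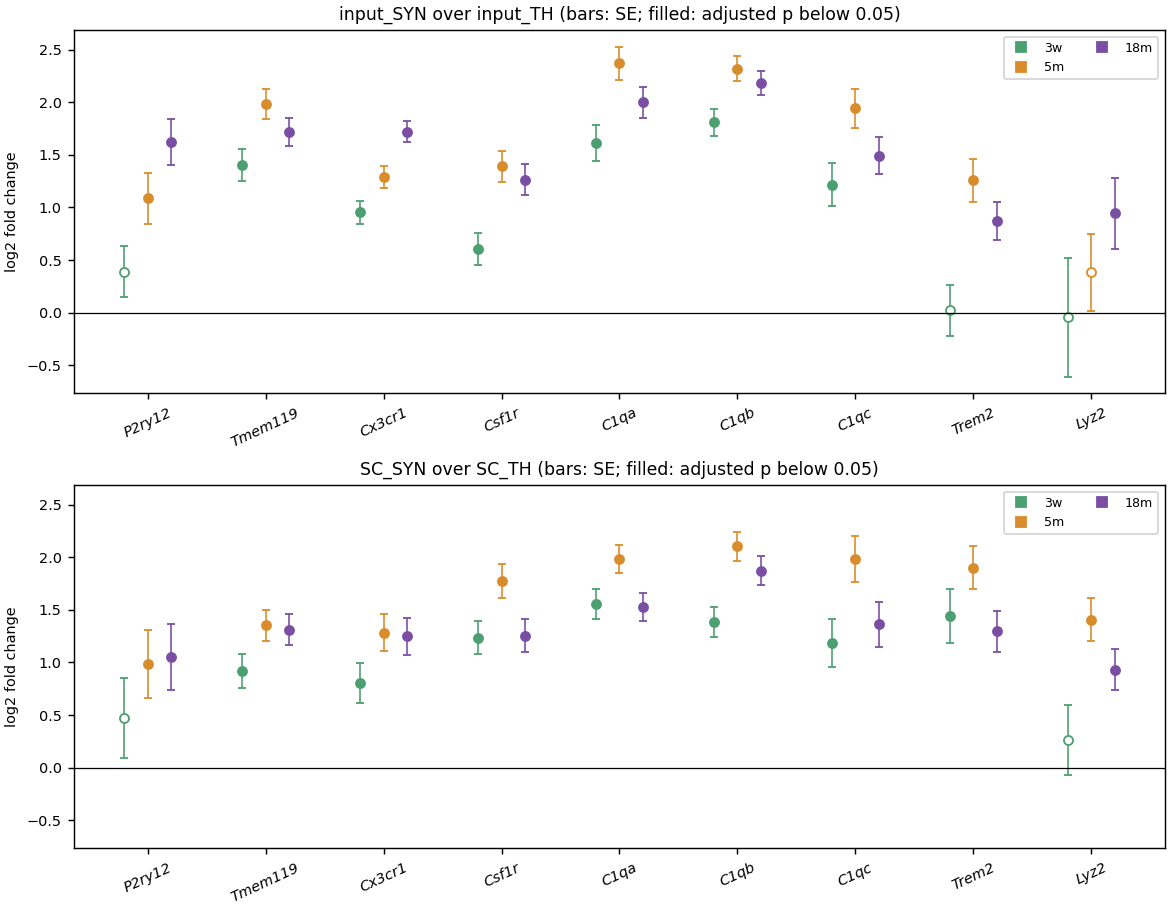
Log2 fold change of SYN over TH for each member in input (top) and in the ribosome pellet (bottom) at 3w, 5m and 18m, with standard errors (n = 4 per group), filled where the adjusted p of edgeR was under 0.05. Filled points lie above 0 in both panels under TMM scaling, and the open ones belong to P2ry12, Trem2 and Lyz2.

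The second question was how the members changed with age in each fraction. Between 3w and 5m, 7 of the 9 members rose in SC_SYN and none fell, where 8.05% of all genes differed and 4.02% rose. In input_SYN 5 rose and none fell (3.22% of all genes differed, 1.28% rose), and in SC_TH 5 rose and none fell (17.9%, with 9.48% up). In input_TH 1 rose and 1 fell (11.8%). The median log2 fold change of the members was 1.02 in SC_SYN, 0.78 in input_SYN, 0.32 in SC_TH and 0.033 in input_TH, against values between -0.0065 and 0.011 for all genes. Between 5m and 18m, Trem2 in input_TH was the only member called in the 4 fractions, with 15.5% of all genes called in input_TH, 2.17% in SC_TH, 0.139% in input_SYN and 0.014% in SC_SYN.

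The C1q genes rose together in SC_SYN between 3w and 5m. C1qa measured 79.3, 66.8, 72.6 and 61.4 CPM at 3w and 188, 135, 127 and 140 CPM at 5m. No library at 5m was as low as any at 3w, and the log2 fold change was 1.03 ± 0.16 (adjusted p = 0.0014, edgeR). C1qb rose by 1.02 ± 0.17 and C1qc by 1.22 ± 0.27, the latter from 83.3, 28.3, 52.1 and 63.9 to 171, 125, 119 and 135 CPM. In input_SYN, C1qa rose by 0.98 ± 0.19 and C1qb by 0.78 ± 0.12, while C1qc was at 0.84 ± 0.23 (adjusted p = 0.053, edgeR). C1qc passed there with DESeq2 (0.85, adjusted p = 0.0148) and without a filter on low counts (0.82, adjusted p = 9.25e-05, edgeR). Calls over all genes rose too, from 418 of 12975 to 603 with DESeq2 and to 650 of 24747 without a filter. In SC_TH the log2 fold changes were 0.62 ± 0.11 for C1qa, 0.32 ± 0.09 for C1qb and 0.44 ± 0.11 for C1qc, and in input_TH they were 0.23, 0.29 and 0.12, none of which passed. The difference between SC_SYN and SC_TH in this change did not pass for C1qa, C1qb or C1qc (adjusted p = 0.592, 0.233 and 0.491, edgeR). The SC_TH calls of C1qb and C1qc were lost without mouse 188 (adjusted p = 0.0786 and 0.0528, edgeR), and that of C1qb also without mouse 190 (0.064).

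Trem2 rose in SC_SYN, from 14.8, 9.04, 9.21 and 14.2 CPM at 3w to 40.3, 25.5, 29.2 and 25.5 CPM at 5m (log2 fold change 1.30 ± 0.24, adjusted p = 0.0057, edgeR). In SC_TH it rose from 4.92, 4.21, 4.82 and 3.86 CPM to 9.96, 6.76, 6.78 and 8.61 CPM (0.86 ± 0.18). The groups overlapped in neither fraction. In input_TH it did not pass from 3w to 5m (-0.13 ± 0.11, adjusted p = 0.53, edgeR) and rose from 5m to 18m, from 6.07, 6.94, 6.30 and 6.45 CPM to 9.12, 10.3, 9.07 and 7.31 CPM (0.48 ± 0.11, adjusted p = 0.01, edgeR). In input_SYN the rise between 3w and 5m (1.10 ± 0.29, adjusted p = 0.047, edgeR) rested on few counts and was lost when any of 7 of the 8 mice was left out, with adjusted p up to 0.136.

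Csf1r rose in SC_SYN from 210, 162, 176 and 189 CPM at 3w to the 297 to 373 CPM already given for 5m (0.78 ± 0.17, adjusted p = 0.015, edgeR). At 18m its 4 libraries spread from 163 to 314 CPM, and the difference from 5m was -0.38 ± 0.17 (adjusted p = 0.27, edgeR). Tmem119 rose in SC_SYN from 42.2, 38.5, 43.8 and 30.0 to 86.0, 55.7, 56.9 and 66.9 CPM (0.74 ± 0.17) and in input_SYN by 0.61 ± 0.14. These calls stood close to the threshold. In SC_SYN, Csf1r and C1qc lost theirs without mouse 189 and Tmem119 without mouse 190 or 191 (adjusted p between 0.0504 and 0.0591, edgeR). In input_SYN, Tmem119 lost its call without any 1 of 5 of the 8 mice (adjusted p between 0.0704 and 0.0892, edgeR). Csf1r did not pass in input_SYN between 3w and 5m (0.61 ± 0.18, adjusted p = 0.081, edgeR). It passed with DESeq2 (0.61, adjusted p = 0.0471) and without a filter (0.59, adjusted p = 0.00146, edgeR), where calls over all genes rose as well.

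Cx3cr1 and P2ry12 were not called in SC_SYN between 3w and 5m, at 0.44 ± 0.21 (adjusted p = 0.19, edgeR) and 0.61 ± 0.36 (adjusted p = 0.29, edgeR). P2ry12 fell in input_TH, from 11.6, 7.50, 9.25 and 11 CPM at 3w to 6.00, 6.94, 8.44 and 7.36 CPM at 5m (-0.46 ± 0.14, adjusted p = 0.042, edgeR). These groups overlapped, and the call was lost without any 1 of 6 of the 8 mice (adjusted p between 0.0649 and 0.141, edgeR) and with library size in place of TMM (0.0705). At 18m the input_TH values of P2ry12 were 5.70, 4.54, 6.03 and 5.18 CPM, lower than every library at 3w, although 18m was not tested against 3w. The SC_SYN means of the same gene were 11.5, 18.1 and 23.3 CPM at 3w, 5m and 18m, with SDs of 4.34, 5.87 and 11.8.

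Lyz2 showed the steepest increase of the members. In SC_SYN it was at 1.67, 3.73, 2.72 and 1.90 CPM at 3w and at 18.9, 11.7, 16.4 and 14.7 CPM at 5m. The log2 fold change was 2.57 ± 0.27 (adjusted p = 4.4e-05, edgeR). It rose as well in input_SYN (1.92 ± 0.36), in SC_TH (1.45 ± 0.25) and in input_TH (1.54 ± 0.38, but 0.83 without mouse 191). In each of the 4 fractions the lowest library at 5m was above the highest at 3w. From 5m to 18m it did not pass in any fraction, with 10.3, 16.4, 20.1 and 14.4 CPM in SC_SYN at 18m.

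The input_TH library of mouse 191 stood apart for Lyz2, at 17.8 CPM against 4.36 to 6.24 CPM in the other 3 libraries at 5m. Genes of border macrophages, which line the vessels and meninges, were high in the same library. Mrc1 was at 11.3 CPM against 2.55 to 3.58, F13a1 at 7.75 against 1.34 to 2.45, and Cd163 at 3.72 against 1.07 to 1.33. The summed level of the 19 genes of border macrophages, monocytes and neutrophils ranged from 39.9 to 92.3 CPM in this group and from 37.7 to 50.5 CPM in the other input_TH groups, and the part of these cells in the Lyz2 values was not tested. Most of the sum was Stab1, at 56.3 CPM in the input_TH library of mouse 191 against 28.3 to 30.0 CPM in the other 3. The neutrophil genes S100a8 and S100a9 had at most 6 counts in any library. In SC_SYN the summed level of the same list was 49.9 to 60.9 CPM at 3w and 82.3 to 132 CPM at 5m. Stab1 alone made up most of it, at 30.8 to 44.0 CPM at 3w and 68.8 to 115 CPM at 5m. Of the 3 genes of the list tested there, Stab1 rose (1.20) while Mrc1 was at -0.57 and Cd163 at 0.40. With mouse 191 left out, Lyz2 was still called between 3w and 5m in the 4 fractions and passed in the input comparison of SYN with TH at 5m (1.26, adjusted p = 0.000172, edgeR). Without that mouse, P2ry12, Cx3cr1 and Lyz2 were called higher at 18m than at 5m in SC_TH (0.78, 0.51 and 0.71), and C1qa, C1qc and Trem2 were higher and P2ry12 lower in input_TH. The share of all genes called without that mouse is not reported here, so these calls cannot be set beside it.

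**Figure D3:**
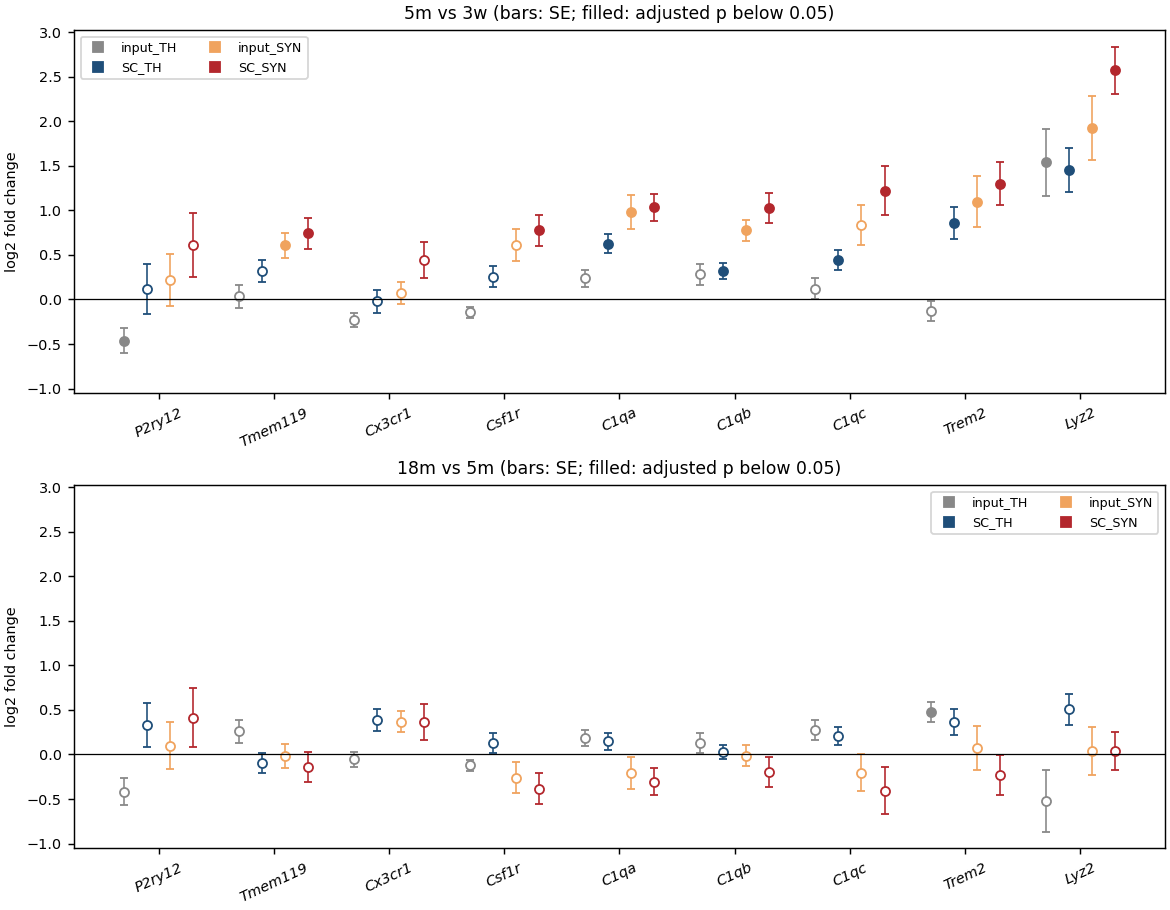
Log2 fold change of each member between 3w and 5m (top) and between 5m and 18m (bottom) in the 4 fractions, with standard errors (n = 4 per group), filled where the adjusted p of edgeR was under 0.05. In the top panel the SC_SYN points are the highest of each gene and 7 are filled, and in the bottom panel the input_TH point of Trem2 is the only filled one.

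The difference between the compartments in the age change was tested itself, as an interaction. No member passed between 3w and 5m in input (0.0224% of all genes did) or in SC (0.0301%), nor between 5m and 18m in input (2.42%) or in SC (0%). For the last comparison, edgeR called 0 of 16630 genes, 2855 had an unadjusted p under 0.05, and DESeq2 called 272 genes but no member. The estimates of the members, as the change in SYN minus that in TH, lay between 0.34 and 1.24 in input and between 0.42 and 1.14 in SC from 3w to 5m, and between -0.45 and 0.56 in input and between -0.62 and 0.07 in SC from 5m to 18m. That of Lyz2 in input ranged from -0.087 to 1.30 between 3w and 5m with 1 mouse left out. Between 5m and 18m in input, Cx3cr1 passed with DESeq2 (0.44, adjusted p = 0.0248) and with library size alone (0.51, adjusted p = 0.045, edgeR). Calls over all 17860 genes rose there too, from 432 to 1109 with DESeq2 and to 623 with library size. Without a filter on low counts, Csf1r (0.78, adjusted p = 0.00679, edgeR) and Trem2 (1.23, adjusted p = 0.0392) were called in input between 3w and 5m. Over all genes, 36 of 31695 were called in that setting, against 4 of 17860 with the filter.

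The third question was how much of each transcript was recovered with ribosomes, as SC over input within a compartment. In TH, 4 members were higher in SC and 1 lower at 3w (52.8% of all genes differed, 26.1% higher), 6 were higher at 5m (62.1%, with 29.9% higher) and 7 at 18m (64%, with 31.3% higher). In SYN, 3, 5 and 4 members were higher in SC and none lower at the 3 ages (18.5%, 20% and 12.6% of all genes differed, 9.04%, 9.66% and 5.88% higher). C1qa and C1qb were higher in SC in all 6 comparisons, and within mice their ratio was above 1 in 12 of 12 mice in both compartments. For C1qb it ranged from 1.97 to 2.88 in TH and from 1.45 to 2.43 in SYN.

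The members that passed were not all the same in TH and in SYN. Csf1r was higher in SC_SYN than in input_SYN at every age (0.77 ± 0.19, 0.93 ± 0.19 and 0.81 ± 0.19), and in TH at 5m and 18m (0.59 ± 0.10 and 0.84 ± 0.10). Tmem119 was higher in SC_TH at every age (0.57, 0.83 and 0.47) but was between 0.02 and 0.15 in SYN, where it did not pass at any age. Cx3cr1 and P2ry12 passed in TH at 18m alone, by 0.67 ± 0.10 and 1.14 ± 0.22, and not in SYN. Trem2 was lower in SC_TH than in input_TH at 3w, with 4.92, 4.21, 4.82 and 3.86 CPM against 6.79, 7.01, 7.33 and 6.93 CPM and no overlap (-0.61 ± 0.16, adjusted p = 0.0021, edgeR). At 5m it was higher, by 0.35 ± 0.13 in TH and 0.95 ± 0.25 in SYN. Whether these ratios differed between TH and SYN was not tested. The summed mean of 5 nuclear RNAs in SC_TH was 12035, 9091 and 5602 CPM at the 3 ages, so the pellet was not free of them. In input_TH it was 18596, 18348 and 16963 CPM, and the part of this shift in the ratios of the members was not tested.

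The call of Trem2 in TH at 5m was lost with the mouse as a block (0.33, adjusted p = 0.0582, edgeR), and without mouse 191 or 194 (0.254 and 0.0822). That of C1qc in SYN at 18m (0.78 ± 0.26) was lost with the block (adjusted p = 0.06, edgeR), while Csf1r in TH at 3w (0.21, adjusted p = 0.0235) and Lyz2 in TH at 18m (0.55, adjusted p = 0.00902) passed with it. In SYN, C1qc and Trem2 lost their calls at 5m without mouse 191 (adjusted p = 0.107 and 0.0845, edgeR). At 18m, Csf1r and C1qc lost theirs without mouse 197 (0.0594 and 0.303), and C1qc also without mouse 195 or 196 (0.0826 and 0.133).

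**Figure D4:**
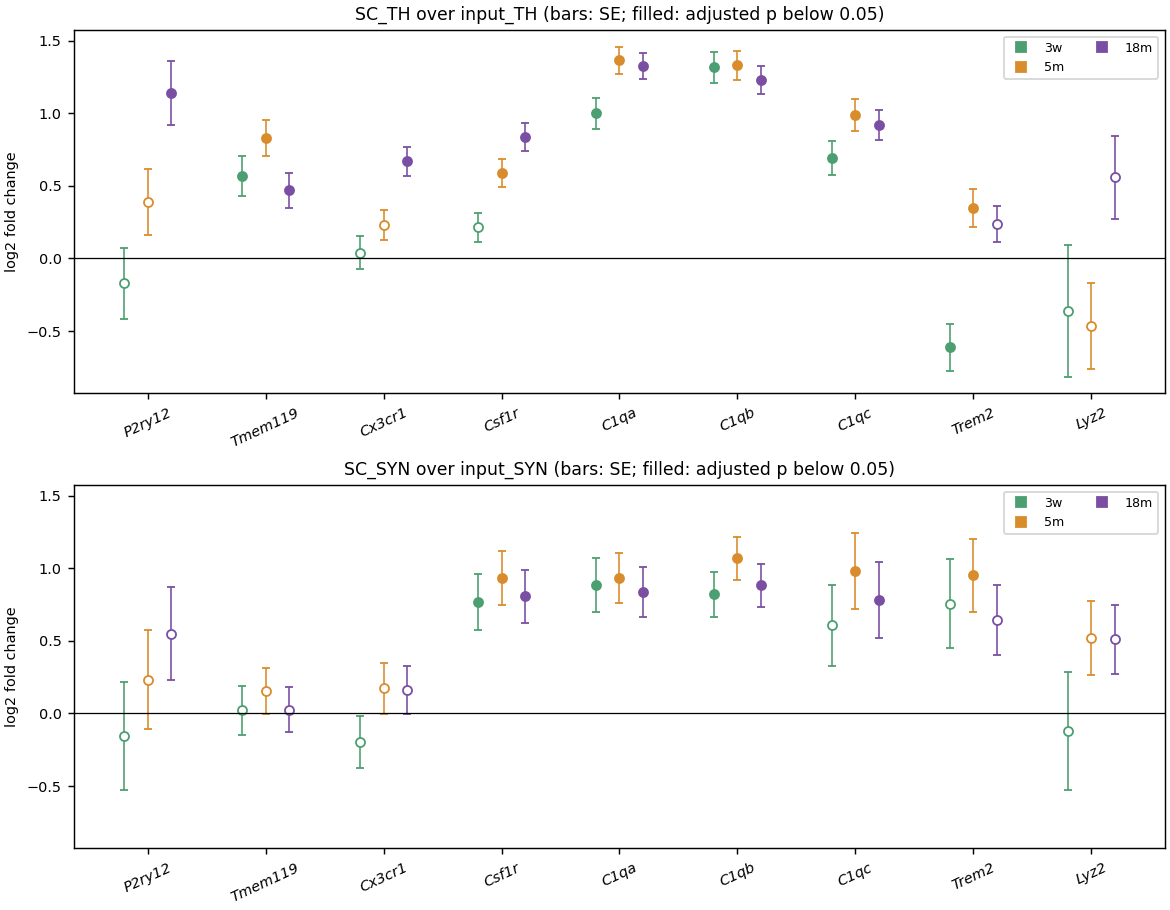
Log2 fold change of SC over input for each member in TH (top) and in SYN (bottom) at 3w, 5m and 18m, with standard errors (n = 4 per group), filled where the adjusted p of edgeR was under 0.05. The C1q genes and Csf1r lie above 0 in both compartments, while Tmem119 is filled at each age in TH and open at each age in SYN.

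Other genes of the members' pathways were described with lists written by hand. Of 22 ligands, adaptors and partners of the members, 18 were higher and 1 lower in SC_SYN than in SC_TH at 5m among 20 tested (median 1.30), where 32.1% of all genes were higher. Tyrobp, the adaptor of Trem2, was at 6.19 ± 2.2 CPM in SC_TH and 35.1 ± 3.1 in SC_SYN (2.47). The ligand genes Csf1 (1.08), Il34 (1.28) and Cx3cl1 (1.66), which other brain cells make, were higher in SC_SYN too, and C3, the complement protein downstream of C1q, was lower (-1.12) at 1.33 CPM or less in both. Between 3w and 5m, 3 of 19 rose in SC_SYN, where 4.02% of all genes did, which were C4b (1.44), another protein of the classical pathway, Itgb2 (1.58), a subunit of the complement receptor CR3, and Tyrobp (0.85). C4b was the one gene of this list that also rose between 5m and 18m in SC_TH and input_SYN, by 0.93 and 0.95, and its mean in SC_SYN was 34.4, 95.9 and 163 CPM at the 3 ages.

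The same direction held for other genes of microglia. Of 40 further homeostatic and pan-microglial genes, 36 were higher and 1 lower in SC_SYN than in SC_TH at 5m (median 1.40), and of 17 tested genes of disease-associated microglia 16 were higher (median 1.56), against the 32.1% of all genes. Aif1, Fcer1g and Tyrobp reached 2.47, whereas the transcription factor genes Sall1 (0.44) and Irf8 (0.57), named after their values were seen, were near the low end. Between 3w and 5m in SC_SYN, 8 of 39 of the further microglial genes rose and none fell (median 0.47, with 4.02% of all genes rising), among them Ctss (0.91), Laptm5 (0.91) and Fcer1g (1.13). Aif1, at -0.20, and Itgam, at 0.03, did not pass. Of the disease-associated genes 1 of 16 rose, Gpnmb (0.89), a share close to that of all genes.

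Marker lists of other cells moved between the compartments as well. At 5m, all 10 astrocyte genes were higher in SC_SYN than in SC_TH (median 1.46), as were 9 of 10 oligodendrocyte genes (0.82), while 3 of 10 neuron genes were higher and 7 lower (-0.50). The summed mean of the neuron genes was nevertheless higher in SYN, at 17909 CPM in SC_SYN against 11222 CPM in SC_TH. In input at 5m it was 17256 CPM in SYN against 6712 CPM in TH. In contrast, 9 of 10 genes of endothelial cells and pericytes were lower (-3.05), as were all 5 erythrocyte genes (-3.07) and all 5 nuclear RNAs (-3.08). With age, all 10 oligodendrocyte genes fell between 3w and 5m in all 4 fractions, with medians between -1.57 and -1.07, and in SC_SYN none of the 10 neuron genes and 1 of the 10 astrocyte genes was called. The erythrocyte genes fell in TH between 3w and 5m, 5 of 5 in input and 4 of 5 in SC, with summed means of 468 and 225 CPM in input_TH and 560 and 312 CPM in SC_TH. Of the 5 nuclear RNAs tested in SC_TH, 3 fell between 3w and 5m and 4 between 5m and 18m, and their summed mean was 12035, 9091 and 5602 CPM at the 3 ages. In SC_SYN that sum was 1147, 1462 and 2703 CPM, and none of the 5 was called. The part of these shifts in the values of the members was not tested.

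**Figure D5:**
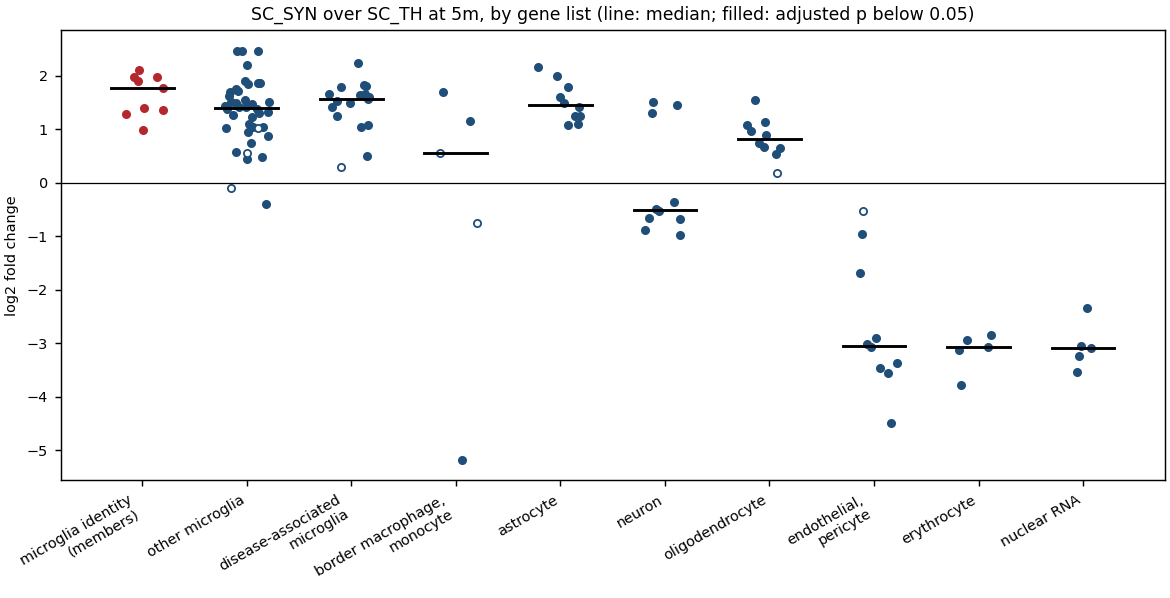
Log2 fold change of SC_SYN over SC_TH at 5m for the 9 members (red) and for the tested genes of 9 other lists (blue), with the median of each list as a line, filled where the adjusted p of edgeR was under 0.05. The medians of the microglial and astrocyte lists lie above 0, and those of the endothelial, erythrocyte and nuclear RNA lists lie near -3.

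Across all 48 libraries the 36 pairs of members had correlations of log2 CPM between 0.45 and 0.97, highest for C1qa with C1qb and lowest for P2ry12 with Lyz2. The libraries share the 12 groups, so these values mainly describe the fractions and ages. With the group means subtracted, they ranged from -0.39 (P2ry12 with C1qb) to 0.80 (Csf1r with C1qa), with a median of 0.38. Among 10624 genes with a mean of at least 50 counts, the 10 most like the mean of the members over the 48 libraries included Lag3, Gldc, Resp18, Ctss, Sez6l2, Laptm5, Pcdhga4, Creg1 and Ptgs1 (r = 0.95 for the last). With the group means subtracted they were Atp13a1 (0.89), Cd81, Grn, Dag1, Man2b2, Srprb, Selenop, Lrp1, Abca2 and Slc38a3 (0.86), so none of the first 10 was among the second. Ctss and Laptm5 belong to the list of further microglial genes.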

How the data were processed

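RNA of TH and SYN, before the cushion (input) and from its ribosome pellet (SC), was sequenced by the authors from rRNA-depleted, strand-specific libraries with UMI adaptors. They used bcl2fastq 2.20.0.422, aligned reads with TopHat2 2.1 to GRCm38 and counted them with featureCounts without strand. The deposited values are these raw counts per gene, and whether UMIs removed duplicate reads is not given in the sources used here.

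Symbols, positions and exonic lengths were taken from GENCODE M21 on GRCm38, which matched 48144 of 48526 identifiers. Promoters came from RefSeq (GRCm38.p6). The test was edgeR's (version 4.0.16 in R 4.3.3), with estimateDisp, glmQLFit and glmQLFTest after TMM and filterByExpr by group. Age was tested in fits of 12 libraries per fraction, and compartments, SC over input and interactions in fits of 24 libraries. P-values were adjusted over all genes tested by the Benjamini-Hochberg method (threshold 0.05). Log2 CPM for correlations used a prior count of 2. The code was tested on simulated counts.

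The 4 libraries of a mouse come from 1 animal, and the mouse number in the labels pairs them. For 72 pairs of libraries of a mouse, the correlation of the deviations from the group means ranged from -0.37 to 0.36, with a median of 0.076. Where fractions were compared, a fit with the mouse as a block was an alternative, and the others were DESeq2 1.42.0, library size without TMM, no filter, and each mouse left out in turn.

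Members and gene lists were chosen with earlier results of these data known. All 9 members are named, and of the other lists the called genes with the lowest adjusted p, up to 4 per list and direction, with others chosen after their values were seen. Proteome and splicing data were not analysed here, and the values of some listed genes are not reported here.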

Additional observations from a re-analysis of the deposited data

Results flagged for a closer look

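In 108 groups of 4 libraries (9 members in 12 groups), 2 groups held a library that stood far from the other 3 by Dixon's criterion, which chance meets in about 1 of 20 groups. Both belong to mouse 191 at 5m. Lyz2 in input_TH was at 17.77 CPM against 4.355 to 6.239 CPM in the other mice, and P2ry12 in SC_TH was at 15.34 CPM against 6.037 to 7.337 CPM. In the input_TH library of this mouse the border macrophage genes Mrc1, F13a1 and Cd163 were also the highest of the group, whereas in its SC_TH library the genes of that kind went different ways. There Stab1 (30.9 CPM against 24.3 to 26.9) and Pf4 (0.804 against 0.197 to 0.391) were the highest of the group, Mrc1 (4.08 against 3.03 to 5.11) and F13a1 (1.73 against 0.884 to 2.30) lay within the other values, and Cd163 (1.86 against 2.05 to 3.45) was the lowest. Their part in the values of Lyz2 and P2ry12 was not tested.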

How the results depend on the processing

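Among the single values of the 9 members, 213 of 216 kept direction and side of the threshold with DESeq2, 205 of 216 without a filter, 203 of 216 with library size without TMM, 140 of 144 with the mouse as a replicate block and 1242 of 1296 with 1 mouse left out. With library size, Trem2 in input_SYN vs input_TH at 3w turned to -0.56 (from 0.02), and the count of members called was 1 (from 2) in input_TH 5m vs 3w, 2 (from 1) in input_TH 18m vs 5m and 1 (from 0) in the interaction of input 18m vs 5m, where DESeq2 also called 1. Without a filter, 1 member (from 0) was called in SC_TH 18m vs 5m and 2 (from 0) in the interaction of input 5m vs 3w. Over all genes in SC_TH 18m vs 5m, 746 of 28996 were called without a filter, against 356 of 16427 with it. The replicate block left all 16 counts of the paired comparisons within 1.5 times, for example 9 in SC_SYN vs SC_TH at 5m, and moved 4 single calls, which the report names. The cause of these moves was not tested. For the counts with 1 mouse left out that follow, the share of all genes called is not reported here. With 1 mouse left out, the count ranged from 1 to 2 in input_TH 5m vs 3w (1 without mouse 187, 189, 190, 192 or 194), from 1 to 4 in input_TH 18m vs 5m (4 without mouse 191, 3 without 195), from 3 to 6 in SC_TH 5m vs 3w (3 without 188), from 0 to 3 in SC_TH 18m vs 5m (3 without 191), from 3 to 5 in input_SYN 5m vs 3w (3 without 188, 189, 190 or 194), from 3 to 6 in SC_SYN vs input_SYN at 5m (3 without 191) and from 2 to 4 in SC_SYN vs input_SYN at 18m (2 without 197).

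Library size also moved the share of higher calls over all genes, from 40.3% to 59.2% in input_TH 5m vs 3w, from 52.7% to 32.6% in input_TH 18m vs 5m, from 50% to 39.2% in SC_SYN 5m vs 3w, from 48.8% to 59.4% in SC_SYN vs input_SYN at 3w and from 41.7% to 67.9% in the interaction of input 18m vs 5m. Low counts limit Trem2 and Lyz2 in input_SYN. The replicates are 4 mice per group, and age comparisons have no block because each mouse has 1 age.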
